A study of Dunaliella salina with 4 samples.

Results

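The 200 transcripts described here are those whose level was most clearly lower in deep-water cultures than in control cultures of Dunaliella salina, among entries that stand alone for their locus tag. They were chosen by the authors' deposited normalised counts, which are read counts divided by 1 scaling factor per library. An entry qualified if its name carried no second numeric suffix and if both controls had a normalised count of at least 500. It was then ranked by the smaller control value divided by the sum of the larger deep-water value and 8, and the 200 highest ratios were taken. Of 17872 deposited entries, 14363 had no suffix and 7549 of these qualified. All 200 had reads in all 4 libraries, and all 200 are annotated as protein-coding.

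D. salina is a unicellular green alga without a rigid cell wall. In salt it balances the outside pressure by making and holding glycerol, and under stress it can store large amounts of beta-carotene. RNA sequencing reads the steady-state pool of each transcript relative to the other RNAs of the library. A lower normalised count states a lower level after division by the scaling factor of the library. That is not the same measure as a share of all counts. In a whole culture, fewer cells holding a transcript and less of it per cell cannot be told apart.

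Of the 4 libraries, 2 came from deep-water cultures, grown in water named for Sistan, and 2 from control cultures, kept in standard medium with 30 g/L NaCl. All were described as wild-type vegetative cells, taken as whole cultures and kept at 25 ± 2 °C with 16 h of light and 8 h of darkness. The salt content of the deep water is not given in the labels, so salt cannot be told apart from its other features. The labels name a batch of its own for each library, and treatment and batch cannot be told apart. The labels call the replicates biological but name no separate source cultures.

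Library totals were 127736776 and 149180358 counts in deep water 1 and 2, and 78109607 and 109813468 counts in control 1 and 2. The deposited scaling factors run the other way, at 0.804 and 0.725 in deep water and 1.25 and 1.33 in the controls. A normalised count is compared here between libraries for 1 entry. Between entries it also follows transcript length, which was not used, so no entry is called more highly expressed than another. No gene name, product or sequence is paired with these locus tags in the files or in the annotation table used here. The members are therefore named by locus tag, with no role given, and the labelled cell type could not be checked against markers.

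As a group, the 200 members took 0.0921% and 0.0729% of all counts in deep water 1 and 2, against 1.31% and 0.695% in control 1 and 2. Averaged by group, the share was 0.0825% ± 0.0135 for deep water and 1.00% ± 0.43 for control (SD, n = 2 each). The 200 entries ranked next by the same ratio took 0.131% and 0.110% in deep water 1 and 2, against 1.66% and 0.948% in control 1 and 2. With library size alone, the median log2 difference of all entries was already -1.38. The members were chosen on this contrast, so the fall in share describes the choice. The deep-water libraries lay close together, and the controls lay nearly 2-fold apart. The summed normalised count was 146371 and 150121 in deep water 1 and 2, against 816960 and 572601 in control 1 and 2. Without DUNSADRAFT_1942, the member with the largest control mean, these sums were 142984 and 146867 in deep water and 755586 and 563637 in the controls.

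The median member stood below the middle of each deep-water library, against a place well above the middle in each control library. Ranked among all 17872 entries, the median member stood at percentile 37.4 and 36.7 in deep water 1 and 2, against 75.3 and 72.3 in control 1 and 2. The middle part of the members, between the quartiles, spanned percentiles 27.2 to 56.1 in deep water 1 and 27.8 to 60.0 in deep water 2, against 63.0 to 89.7 in control 1 and 57.6 to 89.2 in control 2. Over all qualifying entries, the median percentile was 74.14 in deep water 1 and 74.04 in deep water 2. In control 1 and control 2 it was 74.38 and 74.15, so the members' place there was near that of the median qualifying entry. A rank within a library does not depend on the scaling factor. The rule chose the members for low deep-water values against the controls, so their lower rank in deep water describes the choice. No member was lost from the deep-water libraries: the smallest raw counts there were 18 in deep water 1 and 40 in deep water 2. The smallest raw counts over all qualifying entries were the same, so this is no trait of the members. The median raw count of the members was 327 and 284.5 in deep water, against 2271 and 1961 in the controls, so that counting error is small for most members.

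**Figure D1:**
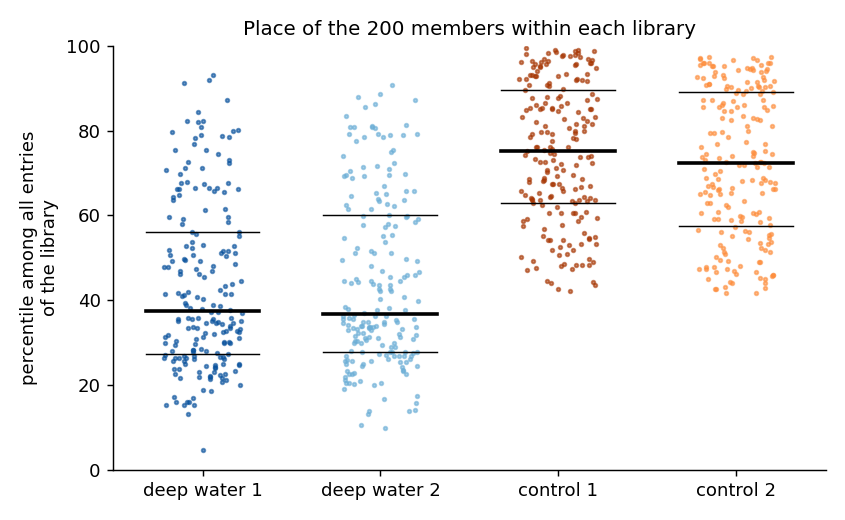
Percentile of each of the 200 members among all entries of its library (vertical axis, 0 to 100), for deep water 1, deep water 2, control 1 and control 2. Each point is a member, the thick line is the median (37.4, 36.7, 75.3 and 72.3, left to right) and the thin lines are the quartiles. The deep-water clouds reach far into the range of the controls, which begins at percentile 42.1 in control 1 and 41.7 in control 2 because the rule set a minimum there.

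Most ratios lay close to the lower end of 2.21 that the choice of 200 set, while differences between group means spread more widely. The ratio used to rank the members had a median of 2.66 and reached 8.26, with quartiles of 2.41 and 3.12. Only 17 members had a ratio of at least 4, and 1 had a ratio of at least 8. By means, the control level was 3.77 times the deep-water level for the median member, with extremes of 2.34 and 20.9. The fitted log2 fold change of deep water over control had a median of -1.89 over the members, with quartiles of -2.33 and -1.65, against a median of -0.13 over the 17858 entries tested. Since the members were chosen on this same contrast, these values describe the choice and are no evidence for it.

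DUNSADRAFT_18756 had the highest ratio. It had 22.4 and 55.2 normalised counts in deep water 1 and 2, against 667 and 522 in control 1 and 2. In reads this was 18 and 40 counts in deep water, against 832 and 695 in the controls. The controls agreed within 1.28-fold, and the deep-water values, although more than 2-fold apart, both lay far below them. Its fitted log2 fold change was -3.90 ± 0.66 (SE), and it stood at percentile 4.58 and 9.88 in deep water, against 49.1 and 42.6 in the controls.

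DUNSADRAFT_16022 and DUNSADRAFT_14784 combined a high ratio with many reads, and both also belong to the 10 members with the largest control means. DUNSADRAFT_16022 had 2181 and 2348 normalised counts in deep water, against 27446 and 16269 in the controls, a log2 fold change of -3.24 ± 0.51 (SE). DUNSADRAFT_14784 had 1748 and 2092 in deep water, against 14699 and 13222 in the controls, or -2.83 ± 0.43 (SE). In both, the deep-water pair was tight, and for DUNSADRAFT_14784 the controls were too, at 1.11-fold apart. Both still ranked high in the deep-water libraries, at percentiles 80.1 and 81.2 for DUNSADRAFT_16022 and 75.4 and 79.0 for DUNSADRAFT_14784.

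The ratios ranked 4 to 7 belonged to members of very different read depth. DUNSADRAFT_2364 had 1231 and 1388 normalised counts in deep water, against 8672 and 18270 in the controls, and here control 2 was the higher by 2.11-fold. DUNSADRAFT_13410 had 83.4 and 86.9 in deep water, against 1285 and 521 in the controls. The lower control of DUNSADRAFT_13410 thus lay only just above the minimum of 500. DUNSADRAFT_13140 was the most even of these, with 340 and 313 in deep water, against 1893 and 1992 in the controls. Its log2 fold change of -2.54 had the smallest standard error of the 10 highest-ranked members, 0.33. DUNSADRAFT_1360 had 968 and 901 in deep water, against 10572 and 5159 in the controls, with control 1 the higher by 2.05-fold.

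The remaining members of the highest 10 were DUNSADRAFT_12838, DUNSADRAFT_2110 and DUNSADRAFT_10648. DUNSADRAFT_12838 had 2010 and 2029 normalised counts in deep water, against 14509 and 10016 in the controls. DUNSADRAFT_2110 had 259 and 190 in deep water, against 1210 and 2020 in the controls. DUNSADRAFT_10648 had 106 and 59.3 in deep water, against 554 and 504 in the controls. The controls of DUNSADRAFT_10648 agreed within 1.1-fold, so that its deep-water pair was the more spread of its groups. Across these 10 members, 3 had controls more than 2-fold apart and 1 had deep-water values more than 2-fold apart.

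**Figure D2:**
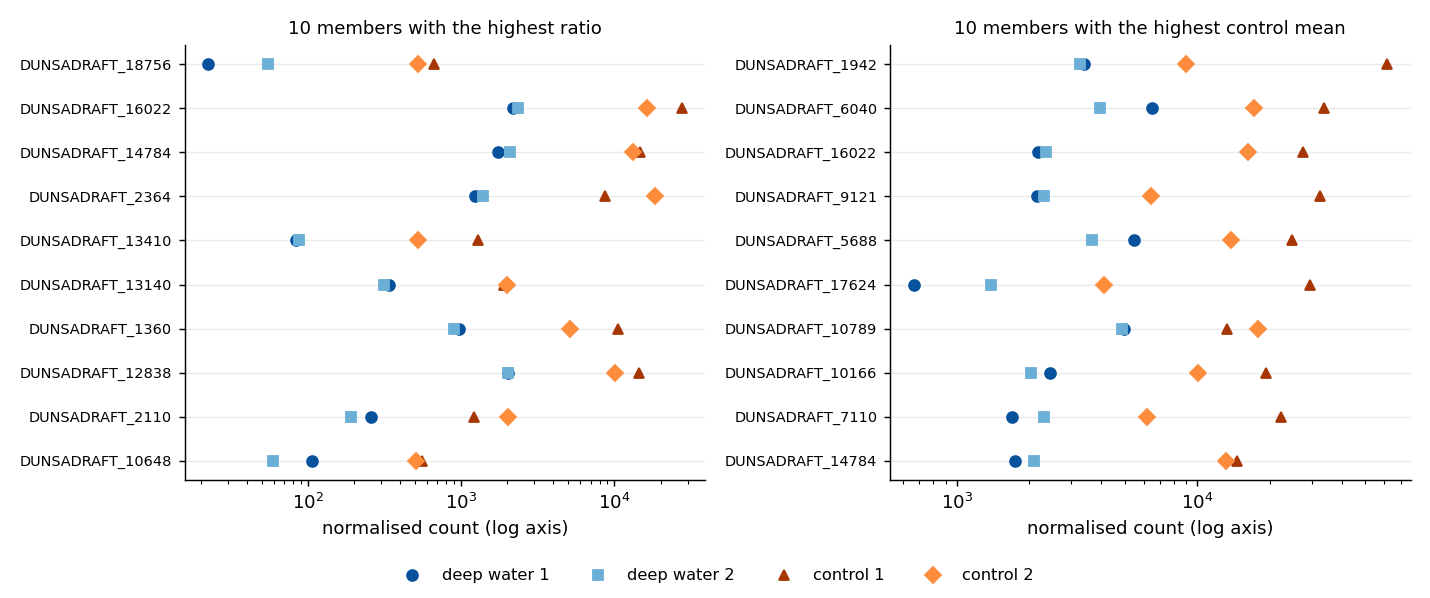
Normalised counts (horizontal, log axis) of the 10 members with the highest ratio (left panel) and the 10 with the highest control mean (right panel), with 1 symbol per library. Circles and squares are deep water 1 and 2, triangles and diamonds are control 1 and 2. In the left panel control 1 and control 2 change places between members, while in the right panel control 1 lies to the right of control 2 in 9 of 10.

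The 10 members with the largest control means were mostly set by control 1. DUNSADRAFT_1942 had 3387 and 3255 normalised counts in deep water, against 61374 and 8965 in the controls. DUNSADRAFT_17624 had 663 and 1389 in deep water, against 29368 and 4110 in the controls. DUNSADRAFT_9121 had 2160 and 2316 in deep water, against 32319 and 6400 in the controls. In each of the 3, control 1 was more than 5-fold above control 2, and the ratios, which take the lower control, were 2.64, 2.94 and 2.75 in the order given. DUNSADRAFT_7110 was of the same kind, with 1694 and 2303 in deep water, against 22209 and 6213 in the controls.

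Others among these 10 rested less on 1 control. DUNSADRAFT_6040 had 6504 and 3961 normalised counts in deep water, against 33750 and 17207 in the controls. DUNSADRAFT_5688 had 5479 and 3652 in deep water, against 24869 and 13802 in the controls. DUNSADRAFT_10166 had 2435 and 2041 in deep water, against 19237 and 10034 in the controls. In these 3 control 1 was 1.80 to 1.96 times control 2. DUNSADRAFT_10789 was the single one with control 2 on top, with 4961 and 4881 in deep water, against 13274 and 17809 in the controls.

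Control 1 lay above control 2 in 131 of the 200 members (65.5%). The share was 71.0% in the 200 entries ranked next and 54.0% in the 7549 qualifying entries. Control 1 was more than 2-fold above control 2 in 31 members (15.5%, against 23.5% of the next 200 and 14.1% of qualifying entries). Control 2 was more than 2-fold above control 1 in 11 members (5.50%, against 4.0% of the next 200 and 12.0% of qualifying entries). The deep-water libraries were more than 2-fold apart in 10 members (5.0%, against 5.0% of the next 200 and 5.11% of qualifying entries). The rule takes the smaller control value and the larger deep-water value, which favours entries whose pairs lie close together. It treats the 2 controls alike and does not by itself set which lies higher. How far these shares follow from the rule was not tested.

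The members can be set apart by their controls, which the rule used, so the values of the 3 groups describe that division and nothing more. In the 31 members with high control 1, control 1 was 10.9-fold above deep water 1 at the median and control 2 was 2.97-fold above it. In the 11 members with high control 2, control 1 was 3.80-fold above deep water 1 and control 2 was 12.0-fold above it. In the 158 members whose controls lay within 2-fold, these values were 3.63 and 3.22. Against deep water 2 the medians were 9.67 and 2.76 in the first group, 3.73 and 13.2 in the second, and 3.63 and 3.36 in the third. The median fitted log2 fold changes were -2.77, -2.97 and -1.79 in the same order. The rule bounds the lower control from below, so a control more than 2-fold above it raises the control mean and the fitted change by construction.

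The members with the widest controls show how large this disagreement was. DUNSADRAFT_715 had 329 and 542 normalised counts in deep water, against 16159 and 1610 in the controls. DUNSADRAFT_15712 had 620 and 650 in deep water, against 15992 and 1758 in the controls. Control 1 exceeded control 2 by 10.04-fold and 9.09-fold in these members, and by 7.15-fold in DUNSADRAFT_17624. On the other side, DUNSADRAFT_11302 had 183 and 359 in deep water, against 1337 and 9959 in the controls. DUNSADRAFT_6297 had 162 and 181 in deep water, against 744 and 4841 in the controls, and DUNSADRAFT_2469 had 265 and 334, against 1337 and 5253. In these 3, control 2 exceeded control 1 by 7.45-fold, 6.5-fold and 3.93-fold. DUNSADRAFT_11302 had the largest fitted log2 fold change of the members with all 4 libraries in the fit, -4.36, with a standard error of 1.11, against a median standard error of 0.41 over the members. That value rested on control 2: it was -2.32 without control 2 and -5.19 without control 1. For DUNSADRAFT_715 the fitted value was -1.88 without control 1 and -5.23 without control 2.

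**Figure D3:**
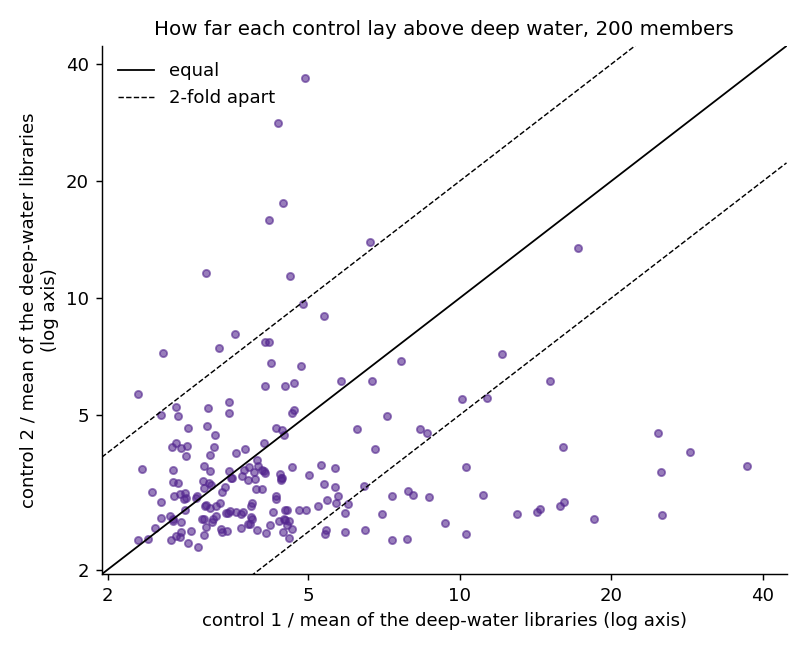
Control 1 (horizontal) and control 2 (vertical) of each of the 200 members, each divided by the mean of the 2 deep-water libraries, on log axes. The solid line marks equal controls and the dashed lines mark a 2-fold difference. Most points (158) lie between the dashed lines, 31 lie to the right with control 1 high and 11 lie above with control 2 high.

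With edgeR's quasi-likelihood test over all entries, 0 of the 200 members had an adjusted p under 0.05 for a lower level in deep water, where 0% of all 17858 entries did. All 200 had an unadjusted p under 0.05, where 9.58% of all entries did, on the contrast that chose them. DESeq2's Wald test called 198 members lower at an adjusted p under 0.05, where it called 6.1% of all entries with an adjusted p (1006 of 16486), and limma-trend called 0. Without control 1 the edgeR test called 159 members, where it called 5.6% of all entries (1000 of 17847). Without control 2 it called 191, where it called 15.2% (2715 of 17818). In both fits the spread of the lone control had to be borrowed from the deep-water pair. With library size alone as the scaling, edgeR called all 200, where it called 19.2% of all entries (3429 of 17858). Both deep-water values lay below both control values in all 200 members by the rule itself, and in 34.0% of the qualifying entries. Nothing is read from these counts, since the rule used the same libraries and contrast.

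A library left out of the choice gives values that the rule did not use, although it is still set against libraries that the rule did use. The rule was therefore repeated without each library in turn, and the values are given with no test. When deep water 1 was left out and the rule was applied to the other 3 libraries, 198 of the 200 entries chosen lay below both controls in deep water 1, against 40.6% of all entries that qualified. With deep water 2 left out this was 195 of 200, against 40.2%. The median ratio over the chosen entries was 3.23 in the deep-water library used and 2.64 in deep water 1 when that was left out. It was 3.23 and 2.52 when deep water 2 was left out. Over all that qualified, the median in the left-out library was 0.823 for deep water 1 and 0.816 for deep water 2. The 200 entries had been chosen for high values in the same 2 controls that the left-out library was then set against. A high count therefore follows in part from the choice. The shares over all qualifying entries are not the level such a choice would give with no change, and the counts are a description only.

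With a control left out, the counts were lower. When control 1 was left out, 101 of the 200 entries chosen on control 2 lay above both deep-water values in control 1, or 50.5%, against 42.4% of all 8587 entries that qualified. Their median ratio was 5.83 with control 2, the control used, and 1.00 with control 1. Over all that qualified, the median with control 1 was 0.81. When control 2 was left out, 157 of 200, or 78.5%, lay above both deep-water values in control 2, against 44.0% of the 8567 that qualified. Their median ratio was 10.1 with control 1 and 1.48 with control 2. Over all that qualified, the median with control 2 was 0.90. A ratio of at least 2 in the left-out control was seen in 54 and 62 of the 200 entries, with control 1 and control 2 left out in that order. The share over all entries that qualified is not given here, so nothing is read from these 2 counts.

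Membership followed the same pattern. Of the 200 members, 133 and 127 were chosen again without deep water 1 and without deep water 2. Without control 1, 36 were chosen again, and without control 2, 27. The last ratio chosen was 4.23 without control 1 and 6.99 without control 2, against 2.68 and 2.74 without deep water 1 and 2. With 1 control left, the rule no longer takes the smaller of 2 control values. The lower counts without a control follow in part from that. Just 6 members were chosen again in all 4 cases, and all 6 were among the 10 with the highest ratio. They were DUNSADRAFT_18756, DUNSADRAFT_16022, DUNSADRAFT_14784, DUNSADRAFT_13410, DUNSADRAFT_1360 and DUNSADRAFT_12838. A member chosen again both without control 1 and without control 2 needed a ratio of at least 4.23. Their high rank therefore follows from that limit.

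**Figure D4:**
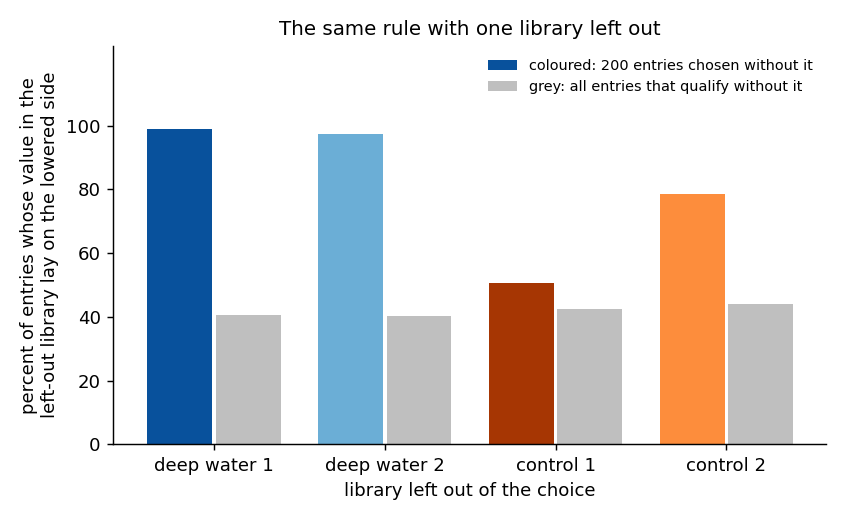
Percent of entries (vertical) whose value in the library left out of the choice lay on the lowered side, that is, below both controls for a deep-water library or above both deep-water libraries for a control. Coloured bars are the 200 entries chosen without that library and grey bars are all entries that qualified without it. The coloured bars stand at 99.0% and 97.5% for deep water 1 and 2 and at 50.5% and 78.5% for control 1 and 2, beside grey bars between 40.2% and 44.0%. High coloured bars follow in part from the choice, which used the libraries that the left-out library is set against. The grey bars are not the level such a choice would give with no change.

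The limit at 200 members falls on a smooth slope of ratios. The last members inside were DUNSADRAFT_1960, DUNSADRAFT_5749 and DUNSADRAFT_14445, with ratios that round to 2.21. DUNSADRAFT_14445 had 1292 and 1373 normalised counts in deep water, against 4018 and 3049 in the controls. The first entries outside were DUNSADRAFT_18315, DUNSADRAFT_16663 and DUNSADRAFT_12920, with ratios of 2.21, 2.21 and 2.20. DUNSADRAFT_18315 had 3780 and 3428 in deep water, against 9775 and 8363 in the controls, and does not differ in kind from the members beside it.

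Members were spread over the whole range of control levels. They made up 2.60% of qualifying entries whose lower control had a normalised count from 500 to below 1000 (72 of 2766), and 2.38% of those from 1000 to below 2000 (60 of 2522). The share was 2.61% from 2000 to below 4000 (36 of 1377) and 4.59% from 4000 to below 8000 (22 of 479). From 8000 upward, 10 of 405 entries were members (2.47%), although qualifying entries at that level had a median log2 fold change of 1.56.

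Among single entries, large falls were rarer than large rises under the deposited scaling, and more frequent with library size alone. A ratio of at least 3 was reached by 61 entries that were lower in deep water, and by 748 entries that were higher when the rule was mirrored. At a ratio of at least 4 there were 17 lower and 297 higher. At a ratio of at least 3, TMM factors gave 57 lower and 782 higher, and library size alone gave 1537 lower and 5 higher. The median log2 difference of all entries moved from -0.10 to -1.38 between the deposited scaling and library size alone. Relative to that median, the members stood at -1.77 with the deposited factors, -1.77 with TMM and -1.81 with library size alone, and all 200 lay below both controls under each. A scaling factor shifts all entries of a library alike, so these differences can change only through the constant of 8 added before the log. Library size alone set deep water lower still, so the members had to stay below both controls there.

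The position of the members in the annotation was not used by the rule. They were spread along the annotation order, with 15 to 24 members in each of 10 equal stretches. In 3 places, 2 members were adjacent, which makes 6 members, against 4 entries in such pairs among the next 200 entries by ratio and 11 among the 200 most raised by the mirrored rule. DUNSADRAFT_16911 had 279 and 232 normalised counts in deep water, against 1048 and 907 in the controls. Its neighbour DUNSADRAFT_16912 had 485 and 545 in deep water, against 1716 and 3836 in the controls. The controls of this pair did not follow each other, being 1.16-fold apart in DUNSADRAFT_16911 and 2.23-fold apart, in the other direction, in DUNSADRAFT_16912.

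The other adjacent members were DUNSADRAFT_16075 with DUNSADRAFT_16076 and DUNSADRAFT_429 with DUNSADRAFT_430. DUNSADRAFT_16075 had 178 and 217 normalised counts in deep water, against 2564 and 548 in the controls, and DUNSADRAFT_16076 had 1213 and 1145, against 5198 and 4005. DUNSADRAFT_429 had 138 and 106 in deep water, against 501 and 939 in the controls, and DUNSADRAFT_430 had 404 and 375, against 2861 and 927. In the first of these pairs control 1 was the higher in both members, and in the second the controls ran in opposite directions.

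The single entries lying next to a member had a lower median log2 fold change than single entries as a whole, with values on both sides of 0. After leaving out members, 313 single entries had a member as an immediate neighbour. Their median log2 fold change was -0.47 (quartiles -1.03 and 0.48), and 208 of 313, or 66.5%, had a negative value. Over the 14354 single entries tested, the median was -0.06 and 51.9% were negative. Both deep-water values lay below both controls in 39.6% of the adjacent entries and above both in 20.8%. Beside any of the 7549 qualifying entries these shares were 29.0% and 34.0%.

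The medians of the adjacent entries were negative against each control. In log2 normalised counts, the median of the adjacent entries was -0.32 for deep water 1 over control 2 and -0.36 for deep water 2 over control 2. Over control 1 it was -0.38 for deep water 1 and -0.40 for deep water 2. Between the controls, the median was 0.08 for control 1 over control 2. Beside all qualifying entries, the medians over control 2 were 0.02 for each deep-water library. Over control 1 they were 0.12 for deep water 1 and 0.10 for deep water 2. At a distance of 2 locus tags from a member the median log2 fold change was -0.14, and at 3 it was -0.18. Among entries adjacent to the next 200 by ratio it was -0.12, and beside the 200 most raised it was 0.24. Fitted without control 1, the median of the adjacent entries was -0.29, against -0.06 for all entries, and with library size alone it was -1.86, against -1.48. In the annotation, 18 of the 313 overlap a member, and without them the median was -0.53. The sources used here do not say how reads over neighbouring genes were counted, and the part of that counting in this result was not tested.

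**Figure D5:**
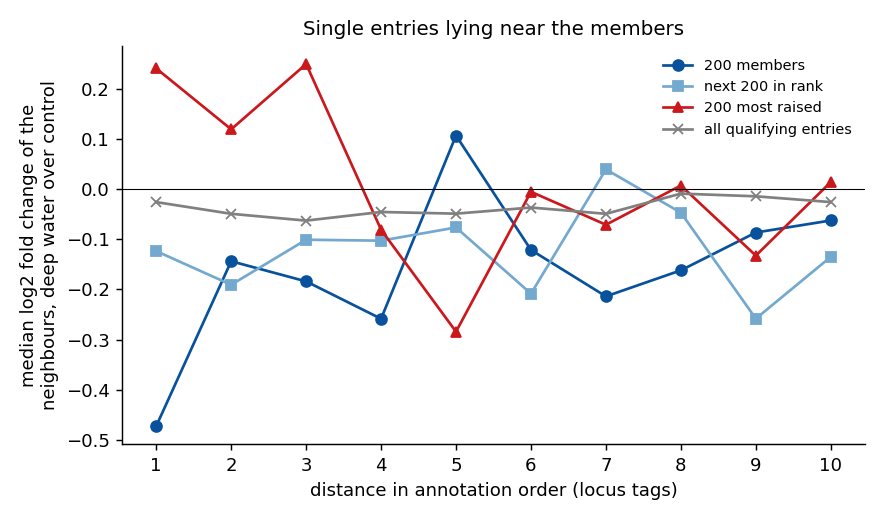
Median log2 fold change of deep water over control (vertical) for single entries at 1 to 10 locus tags from an entry of each set (horizontal), with entries of the set itself left out except for the grey line. At distance 1 the median was -0.47 beside the 200 members, -0.12 beside the next 200, 0.24 beside the 200 most raised and -0.03 beside all 7549 candidates. From distance 2 onward the members' line stays between -0.26 and 0.11.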

How the data were processed

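Whole-culture RNA of 4 D. salina libraries was analysed, 2 per group. Per the labels' protocols, total RNA was extracted with a commercial reagent and prepared by a standard Illumina method. The authors deposited raw counts per annotated entry and a second table of normalised signal values, which equal the raw counts divided by DESeq2 size factors recomputed here. R 4.5.1 and DESeq2 are the tools listed in the submitters' processing notes. The sources used here do not give an aligner, a counting program or a genome build.

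The rule was applied to the deposited normalised values. Counts of all entries were fitted with edgeR 4.0.16 (quasi-likelihood, TMM, its default low-count filter, group as the only term, Benjamini-Hochberg adjustment) in R 4.3.3. DESeq2 1.42.0 and limma-trend (limma 3.58.1, pseudocounts 1 and 5) were alternatives. Standard errors are log2 fold changes over the root of edgeR's F statistic. The self-test on simulated counts passed. Its counts had the same spread setting for all entries and were scaled by library total alone. It therefore does not show how many falls the test could detect in these libraries. P-values measure only the spread between these libraries, which may be technical. Counting error is small at these counts.

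All 17872 entries are locus tags of the Dunsal1 v. 2 annotation, 3509 of them with a suffix. The table was used for names and order only, and a start below the one before it was taken to begin another assembled sequence. The members, lists and comparisons were chosen with earlier results of these data known. Entries named in the text are the 10 highest ratios, the 10 largest control means, 3 on each side of the limit, adjacent members and the 3 widest control differences each way. The 6 members chosen again without each library were picked out after their values were seen. Lists by product name could not be used. Libraries with the same number had within-group deviations correlated at 0.08, and no label ties them, so they were treated as unpaired.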

Additional observations from a re-analysis of the deposited data

How the results depend on the processing

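For the 200 members, the count called lower at an adjusted p under 0.05 was 0 (0 of all entries), but 200 with library size alone (3429 of all entries) and 198 with DESeq2's Wald test (1006). It was between 0 and 191 on leaving out 1 library, with 1000 of all entries called without control 1, 2715 without control 2 and 0 without either deep-water library. Their median log2 fold change was -1.89, and -3.25 with library size alone, by that scaling's construction (-1.48 for all entries); leaving out each library gave -2.004 to -1.68. The rule chose 110 of the 200 again with a control minimum of 100, 128 with 1000, 44 with group means in place of minimum and maximum, and 27 to 133 with each library left out. It chose 195 with TMM, 134 with library size alone and 182 with a constant of 50. Members in adjacent pairs numbered 6, and 2 with a constant of 50. The adjacent single entries, whose alternatives were chosen after seeing the data, had a median of -0.47. It was -0.51 with DESeq2 size factors and with DESeq2's test, -1.86 with library size alone, -0.53 with at least 10 counts in all 4 libraries, -0.53 without entries overlapping a member, and -0.53 to -0.29 with each library left out. The cause of these differences was not tested. With the replicate number as a block, 0 members were called and the medians were -1.86 for members and -0.46 for adjacent entries. The 32 named members kept their direction in all 12 alternative fits, a direction that the choice of members fixes. Depth bears on few members: their smallest counts were 18 and 40 in deep water and 625 and 670 in the controls.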

Other observations

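Entries with a numeric suffix were left out of the members by the rule. Of 1510 such entries with at least 500 normalised counts in both controls, 85, or 5.63%, had a ratio at or above that of the last member, against 2.65% of the single entries that qualified. A ratio of at least 4 was reached by 17 of them (1.13%) and by 17 single entries (0.225%). The 85 belonged to 64 locus tags. The other 55 tested entries of those locus tags had a median log2 fold change of -1.04 in deep water over control (quartiles -1.41 and -0.01), with 41 lower and 14 higher. Over all 17858 entries tested the median was -0.13. The value over all entries with a suffix is not given here. The sources used here do not say how reads were divided between entries of 1 locus tag, and the part of that division in these values was not tested.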
